A study of Mus musculus with 18 samples.

Results

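The regions described here are the accessible chromatin peaks around Nos2 and Ptgs2 in mouse bone marrow-derived macrophages (BMDMs). Members were all peaks of the deposited union set that overlapped the body of either gene extended by 50 kb on both sides, which gave 55 of 194284 peaks. Of these, 37 lay in the Nos2 window (mm9, chr11:78684289-78823756) and 18 in the Ptgs2 window (mm9, chr1:151897254-152005140). The gene bodies are chr11:78734289-78773756 for Nos2 (ENSMUSG00000020826.6) and chr1:151947254-151955140 for Ptgs2 (ENSMUSG00000032487.7), both on the plus strand in GENCODE M1. A peak is named by its gene and by the distance of its midpoint from the annotated start, with negative values upstream.

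Nos2 encodes inducible nitric oxide synthase, which makes nitric oxide from arginine and is a classical product of macrophages exposed to bacterial lipopolysaccharide (LPS). Ptgs2 encodes cyclooxygenase-2, which converts arachidonic acid to the precursor of prostaglandins and thromboxane and is likewise induced during inflammation. Both genes are known targets of NF-kappaB and C/EBP factors, and Nos2 also of interferon-activated factors. The assay for transposase-accessible chromatin (ATAC-seq) counts where a transposase can insert into DNA, so a peak marks open chromatin and not the amount of transcript.

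All libraries came from Il10-/- mice on a C57BL/6J background, so the cells of every group, controls included, could not make their own IL-10. Bone marrow came from 3 mice, and the 6 conditions had 3 libraries each, numbered as replicates 1 to 3. The labels do not say whether libraries of the same number came from the same mouse. Cells received 500 nM (+)-JQ1, which blocks the binding of bromodomain and extra-terminal (BET) proteins to acetylated histones, or 10 ng/mL recombinant IL-10, a cytokine that restrains macrophage activation, or no inhibitor or cytokine. After 12 h, 50 ng/mL LPS was added for 4 h or was left out, and all cells had been cultured for 16 h. The groups were unstimulated, (+)-JQ1, IL-10, LPS, LPS + (+)-JQ1 and LPS + IL-10.

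The libraries held 12020526 to 25908198 counts in peaks. The scaling factors of the unstimulated libraries were 1.04 to 1.24 and those of the other libraries 0.896 to 1.05, a difference in composition that touches every comparison with unstimulated cells. As a check of the cell type, 5 of 8 macrophage genes had a peak over a transcription start site (TSS), with group means of 3.68 to 62.4 CPM (counts scaled to library size) per kb. None of 4 T cell genes had such a peak, and the group means for 2 of 4 B cell genes were 0.805 to 2.94 CPM per kb. The neutrophil list gave 1.14 to 19.8 CPM per kb at 3 of 4 genes, the top value being S100a8, while the defining gene Ly6g had no TSS peak. The stromal list gave 3.95 to 6.18 CPM per kb at 2 of 4 genes and the epithelial list 1.88 to 2.93 CPM per kb at 2 of 3 genes. Csf1r and Cd68, which define macrophages, also lacked a peak over the annotated TSS, and Spi1 was not found by that symbol in the annotation.

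Sequences of 2 promoters and 4 peaks are shown so that the letters of both starts and of 4 peaks that rose strongly with LPS can be read. They were read from the mm9 genome on the plus strand. The promoters are the 250 bases before the annotated starts, which both lie inside the TSS peaks. Capitals in them mark a kappaB consensus, a C/EBP motif (TTGCNNAA) or a core of the cyclic AMP response element (CRE core, TGACG), on either strand. In the Nos2 promoter the kappaB match spans -46 to -37 and the C/EBP match -24 to -17 from the annotated start. In the Ptgs2 promoter the C/EBP match spans -162 to -155 and the CRE core -80 to -76, where it overlaps an E-box left in lower case.
Nos2 promoter, chr11:78734039-78734288: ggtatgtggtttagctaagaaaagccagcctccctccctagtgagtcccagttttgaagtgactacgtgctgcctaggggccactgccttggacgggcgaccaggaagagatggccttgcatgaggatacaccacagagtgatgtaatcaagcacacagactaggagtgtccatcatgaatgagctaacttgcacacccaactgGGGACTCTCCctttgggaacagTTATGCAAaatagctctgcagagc
Ptgs2 promoter, chr1:151947004-151947253: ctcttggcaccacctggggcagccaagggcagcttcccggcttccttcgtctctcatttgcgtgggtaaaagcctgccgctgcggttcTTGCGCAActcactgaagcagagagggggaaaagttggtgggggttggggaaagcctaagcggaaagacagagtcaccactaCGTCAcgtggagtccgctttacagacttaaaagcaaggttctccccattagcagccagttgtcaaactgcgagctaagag

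The peaks are represented by their central 300 bases, none of which holds an annotated exon. The Nos2 -44.6 kb and -33.6 kb peaks rose with LPS and were not called lower with (+)-JQ1. The Nos2 +36.1 kb and Ptgs2 +51.1 kb peaks rose with LPS and were called lower with (+)-JQ1, the call at Ptgs2 +51.1 kb being near the thresholds. Capitals mark a kappaB consensus, an AP-1 site (TGANTCA), an interferon-stimulated response element core (ISRE core, GAAANNGAA) or a C/EBP motif. In the Nos2 -33.6 kb peak a C/EBP motif, 2 ISRE cores that overlap each other by shared bases, and a kappaB match lie within this stretch. None of these motifs was found in the centres of Nos2 +36.1 kb and Ptgs2 +51.1 kb. The whole Nos2 +36.1 kb peak holds 1 kappaB match, and the whole Ptgs2 +51.1 kb peak holds 2 AP-1 sites and 1 C/EBP motif. The absence of motifs is not shared by all lowered peaks: the centres of the lowered peaks Ptgs2 +5.4 kb, +6.9 kb and +11.6 kb and Nos2 +40.3 kb hold some of them, and that of Nos2 -31.7 kb, which was not called lower, holds none.
Nos2 -44.6 kb, chr11:78689546-78689845: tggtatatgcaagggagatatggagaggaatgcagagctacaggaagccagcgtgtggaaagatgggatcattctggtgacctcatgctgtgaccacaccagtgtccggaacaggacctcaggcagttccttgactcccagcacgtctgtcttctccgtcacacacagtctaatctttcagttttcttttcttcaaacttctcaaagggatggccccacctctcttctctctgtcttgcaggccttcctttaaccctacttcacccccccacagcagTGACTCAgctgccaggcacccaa
Nos2 -33.6 kb, chr11:78700498-78700797: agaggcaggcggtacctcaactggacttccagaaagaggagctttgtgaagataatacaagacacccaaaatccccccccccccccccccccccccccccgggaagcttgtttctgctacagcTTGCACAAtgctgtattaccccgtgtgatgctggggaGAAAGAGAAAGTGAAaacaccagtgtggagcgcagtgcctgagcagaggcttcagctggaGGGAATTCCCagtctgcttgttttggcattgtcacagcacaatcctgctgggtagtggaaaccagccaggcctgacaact
Nos2 +36.1 kb, chr11:78770194-78770493: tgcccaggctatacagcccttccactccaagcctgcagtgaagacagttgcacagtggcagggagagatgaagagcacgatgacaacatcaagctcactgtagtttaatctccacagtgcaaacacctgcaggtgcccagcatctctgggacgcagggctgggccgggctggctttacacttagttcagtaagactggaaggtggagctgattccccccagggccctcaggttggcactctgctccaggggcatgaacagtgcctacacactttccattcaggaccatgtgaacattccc
Ptgs2 +51.1 kb, chr1:151998179-151998478: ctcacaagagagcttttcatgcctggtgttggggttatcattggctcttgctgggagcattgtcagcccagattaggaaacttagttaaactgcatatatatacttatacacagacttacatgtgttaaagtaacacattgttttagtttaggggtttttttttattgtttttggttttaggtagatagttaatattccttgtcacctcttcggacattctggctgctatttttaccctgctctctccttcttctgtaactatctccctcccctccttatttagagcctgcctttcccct

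These motifs are common, so a match describes the letters in a window and not a bound site. Among 45962 promoters of protein-coding transcripts, the 250 bases before the start held a kappaB consensus in 4.22%, a C/EBP motif in 8.52% and a CRE core in 19.99%. Among the centres of 194280 peaks, 3.58% held a kappaB consensus, 10.1% an ISRE core, 12.5% a C/EBP motif and 12.1% the AP-1 site. Of the 55 member centres, 3 (5.45%) held a kappaB consensus, 8 (14.5%) an ISRE core, 6 (10.9%) a C/EBP motif and 4 (7.27%) the AP-1 site.

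The windows also hold other genes. In the Nos2 window, 9 peaks overlapped Lgals9 (chr11:78776476-78798448, minus strand), which encodes the carbohydrate-binding protein galectin-9, and of these the +47.8 kb and +63.2 kb peaks covered TSSs of Lgals9. The TSS peak of Ptgs2 also covered the start of the noncoding RNA gene 7530420F21Rik on the other strand, so changes at these starts cannot be told apart. Peaks were 504 to 19898 bp wide with a median of 1150 bp, and 7 of 55 were classed as promoter and 48 as distal. All 55 passed the filter on low counts, with mean counts per library from 9.44 to 798.

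LPS opened chromatin at peaks of both windows. Differentially accessible regions (DARs) were peaks with an FDR below 0.05 and an absolute log2 fold-change above 0.5 in edgeR's quasi-likelihood test. With LPS against unstimulated cells, 32 of 55 members were higher and 0 lower, where 11.7% of all 194230 tested peaks were higher and 10.2% lower. The median log2 fold-change of the members was 0.99, against -0.03 for all peaks. The 32 comprised 24 of 37 Nos2 peaks and 8 of 18 Ptgs2 peaks. In 30 of the 32 the LPS libraries lay wholly above the unstimulated libraries, the exceptions being Nos2 -45.5 kb and Nos2 +50.7 kb. The call itself favours such a separation, and its share over all peaks was not counted.

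At the start of Nos2, the 7438 bp TSS peak (midpoint +2.5 kb) held 14.9, 11.9 and 13.9 CPM in the 3 unstimulated libraries and 31.5, 31.1 and 29.6 CPM with LPS. All LPS libraries were above all unstimulated libraries, and the peak rose by 1.19 on the log2 scale (SE 0.14, FDR = 1.69e-11). At the start of Ptgs2, the TSS peak held 5.22, 7.03 and 9.75 CPM at rest and 26.7, 23.0 and 25.6 CPM with LPS. It rose by 1.76 (SE 0.16, FDR = 3.72e-17), with no overlap of the groups. Per kb of peak, the Ptgs2 TSS peak had the highest mean of all members with LPS, 28.9 CPM per kb.

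Larger rises lay away from the starts. Upstream of Nos2, 3 peaks had larger log2 fold-changes than either TSS peak. The -33.6 kb peak, the DAR of the Nos2 window with the lowest FDR, held 4.02, 3.02 and 4.33 CPM at rest and 26.9, 20.3 and 21.1 CPM with LPS. Its log2 fold-change was 2.59 (SE 0.16, FDR = 2.6e-26), and its LPS libraries were all above its unstimulated libraries. The -44.6 kb peak went from 1.94, 1.32 and 1.04 CPM to 10.6, 7.89 and 8.72 CPM, a log2 fold-change of 2.68 (SE 0.24, FDR = 1.22e-17). The -31.7 kb peak went from 1.27, 0.824 and 0.986 CPM to 6.89, 7.64 and 7.35 CPM, a log2 fold-change of 2.84 (SE 0.27, FDR = 4.01e-16). In these peaks, too, the groups did not overlap. Upstream of Ptgs2, 0 of 7 peaks were called, with log2 fold-changes of -0.25 to 0.83.

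The other large rises were at the 3′ ends. In Nos2, 7 of 8 gene body peaks and 9 of 12 downstream peaks were higher with LPS. Of the 9 downstream peaks that overlapped Lgals9, 8 were higher with LPS, so most of the raised downstream peaks lay on that gene. The +38.5 kb peak, which spans the end of Nos2, held 4.55, 4.01 and 4.38 CPM at rest and 24.1, 22.2 and 23.5 CPM with LPS, a log2 fold-change of 2.43 (SE 0.16, FDR = 3.33e-25). Around it the log2 fold-changes were 1.96 at +34.5 kb, 2.03 at +36.1 kb, 2.06 at +40.3 kb and 2.27 at +42.2 kb, and at +54.4 kb inside Lgals9 it was 1.83. In Ptgs2, all 4 gene body peaks and 3 of 6 downstream peaks were higher. The +9.1 kb peak, just past the end of Ptgs2, rose most of all members, from 1.81, 1.98 and 1.75 CPM to 13.6, 12.9 and 14.5 CPM. Its log2 fold-change was 2.88 (SE 0.23, FDR = 1.7e-19) with no overlap of the groups. The +6.9 kb peak inside the gene rose by 2.47 (SE 0.34, FDR = 1.96e-09) and the +51.1 kb peak by 1.61 (SE 0.17, FDR = 2.74e-14). Inside the gene, +2.1 kb, +4.3 kb and +5.4 kb had log2 fold-changes of 0.87, 1.31 and 1.54 (FDR = 0.00116, 2.17e-05 and 0.00193). The first of these calls was lost without replicate 3 of every group (0.59, FDR = 0.0975) and the last without replicate 2 (1.13, FDR = 0.103).

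**Figure D1:**
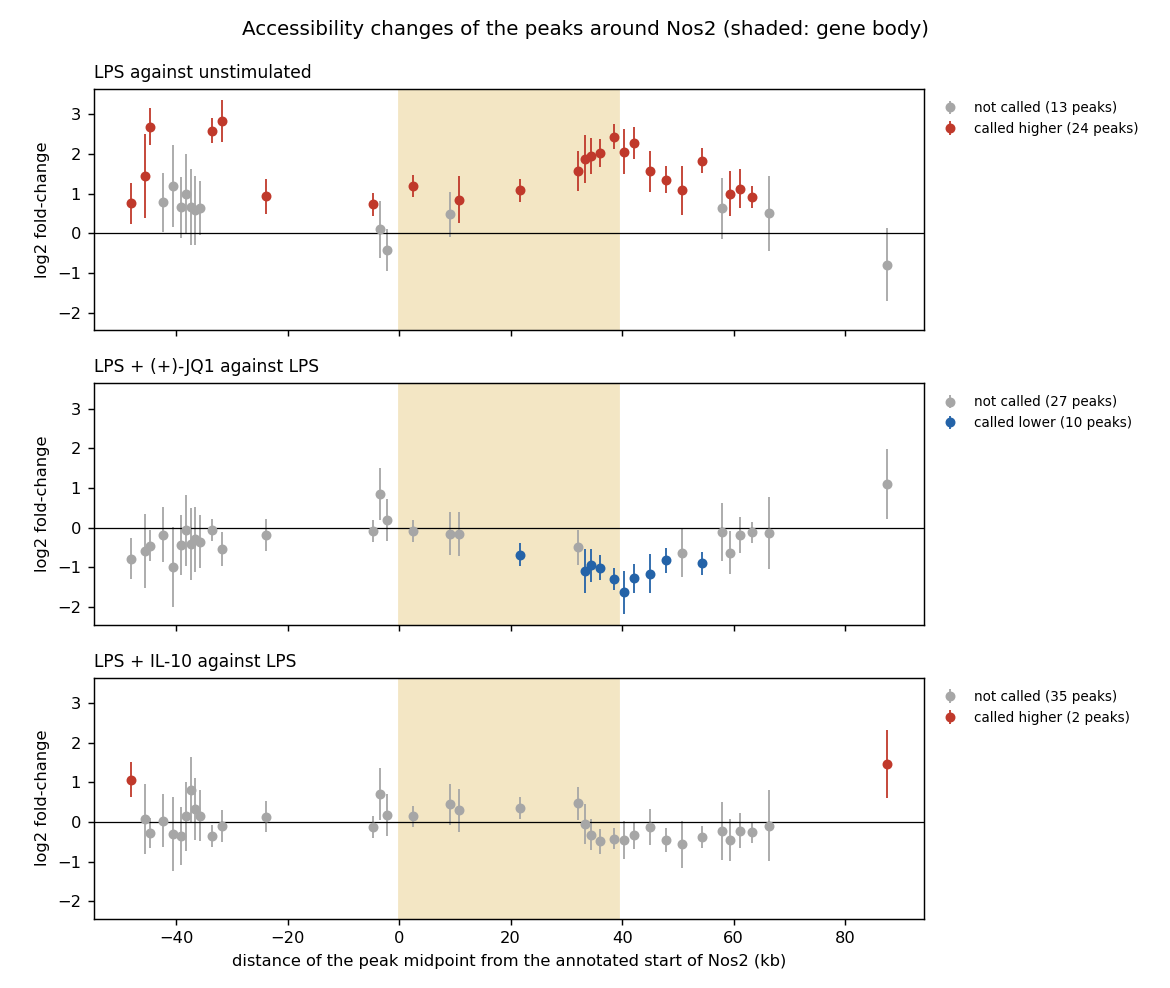
Log2 fold-change (y axis) of the 37 peaks of the Nos2 window against the distance of the peak midpoint from the annotated start in kb (x axis), for LPS against unstimulated, LPS + (+)-JQ1 against LPS and LPS + IL-10 against LPS. Points are edgeR estimates from 3 libraries per group, bars are 95% intervals, colours mark DARs and the shaded band is the gene body. The 10 peaks lowered by (+)-JQ1 lie between +21.6 and +54.4 kb, and the upstream peaks raised by LPS at -44.6, -33.6 and -31.7 kb are not among them.

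(+)-JQ1 lowered the peaks at the 3′ ends of both genes in LPS-stimulated cells and lowered the TSS peak of neither Nos2 nor Ptgs2 past the thresholds. With LPS + (+)-JQ1 against LPS, 15 of 55 members were lower and 0 higher, where 3.49% of all peaks were lower and 1.74% higher. The median log2 fold-change was -0.40 for the members and -0.0031 for all peaks. All 15 were among the 32 peaks raised by LPS, 10 in the Nos2 window and 5 in the Ptgs2 window. In all 15 the LPS + (+)-JQ1 libraries lay below the LPS libraries, a separation that the call itself favours and that was not counted over all peaks. This comparison and the one of LPS with unstimulated cells share the LPS libraries.

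The 15 peaks lay in the gene bodies or downstream. Of 25 peaks upstream of Nos2 or Ptgs2 or at the start of either, 9 rose with LPS and 0 of these were lowered by (+)-JQ1. Their log2 fold-changes were -0.78 to -0.06 (median -0.32). Of 30 peaks in the body of either gene or downstream, 23 rose with LPS and 15 of these were lowered. Here the log2 fold-changes were -1.68 to -0.11 (median -0.90). The Lgals9 TSS peaks at +47.8 kb and +63.2 kb are counted as downstream, and that at +47.8 kb was lowered. This division was drawn after the values were seen, and its upstream side depends on the fit. Nos2 -48.0 kb had a log2 fold-change of -0.78 (SE 0.26, FDR = 0.0579), larger than that of some called peaks. It was called lower with the replicate number as a block, when every library had to hold 10 counts or more, and without LPS + (+)-JQ1 library 1 or replicate 1 of every group. In the last 2 of these fits Nos2 -31.7 kb was called lower as well.

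At the end of Nos2, the +38.5 kb peak held 8.83, 9.17 and 10.3 CPM with LPS + (+)-JQ1, below all LPS libraries (lowest 22.2 CPM) and above all unstimulated libraries. It fell by 1.29 on the log2 scale (SE 0.15, FDR = 1.63e-11). The +36.1 kb peak went from 13.5, 15.9 and 15.9 CPM with LPS to 7.45, 7.48 and 7.64 CPM, a log2 fold-change of -1.004 (SE 0.16, FDR = 2.71e-06). The +42.2 kb peak, which reaches the 3′ end of Lgals9, went from 10.8, 10.7 and 10.4 CPM to 5.83, 2.89 and 4.65 CPM, a log2 fold-change of -1.27 (SE 0.18, FDR = 1.2e-07). In none of these did the groups overlap. The +40.3 kb peak between the genes fell most, by 1.63 (SE 0.27, FDR = 3.49e-06), and the 19898 bp peak over the middle of Nos2 (+21.6 kb) fell by 0.68 (SE 0.14, FDR = 0.000461). Both were named after their values were seen. Of the 10 lowered peaks of this window, 4 overlapped Lgals9. Among them was +47.8 kb over a TSS of Lgals9, which went from 14.2, 14.1 and 15.2 CPM to 8.52, 6.82 and 9.19 CPM, a log2 fold-change of -0.82 (SE 0.16, FDR = 0.000143). Farther on, at +54.4 kb, the log2 fold-change was -0.90 (SE 0.15, FDR = 4e-06). The call at +34.5 kb (log2 fold-change -0.95, FDR = 0.000857) was lost without replicate 3 of every group (FDR = 0.119).

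At the end of Ptgs2, the +9.1 kb peak held 8.29, 3.33 and 3.14 CPM with LPS + (+)-JQ1, against 12.9 to 14.5 CPM with LPS. The groups did not overlap, but the library of replicate 1 lay well above the other 2. The log2 fold-change was -1.55 (SE 0.21, FDR = 7.75e-09) and ranged from -2.08 to -1.24 when single libraries or replicate numbers were left out. The +11.6 kb peak went from 4.92, 5.14 and 4.90 CPM to 2.38, 1.58 and 1.55 CPM, a log2 fold-change of -1.48 (SE 0.26, FDR = 1.14e-05). The +6.9 kb peak went from 3.49, 4.75 and 4.72 CPM to 2.46, 0.600 and 1.2 CPM, a log2 fold-change of -1.68 (SE 0.30, FDR = 3.28e-05). Here again replicate 1 had the highest level under (+)-JQ1. The calls at +5.4 kb (log2 fold-change -1.19, FDR = 0.0443) and +51.1 kb (-0.50, FDR = 0.0281) were near the thresholds, and both were lost in DESeq2 (adjusted p = 0.133 and 0.0397, the latter with a log2 fold-change of -0.498) and when any single LPS library was left out. At +5.4 kb the lowest library held 3 counts.

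At the Nos2 TSS, the 3 LPS + (+)-JQ1 libraries held 35.4, 26.6 and 25.5 CPM, which overlapped the LPS libraries. The log2 fold-change was -0.08, with a 95% interval of -0.35 to 0.18. At the Ptgs2 TSS they held 24.0, 18.9 and 17.8 CPM, a log2 fold-change of -0.32 with an interval of -0.61 to -0.04 (FDR = 0.209). The upstream Nos2 peaks had log2 fold-changes of -0.06 at -33.6 kb (interval -0.33 to 0.22), -0.45 at -44.6 kb (-0.83 to -0.07) and -0.54 at -31.7 kb (-0.96 to -0.12). None of the 3 passed the FDR threshold, which does not show that their levels were the same.

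**Figure D2:**
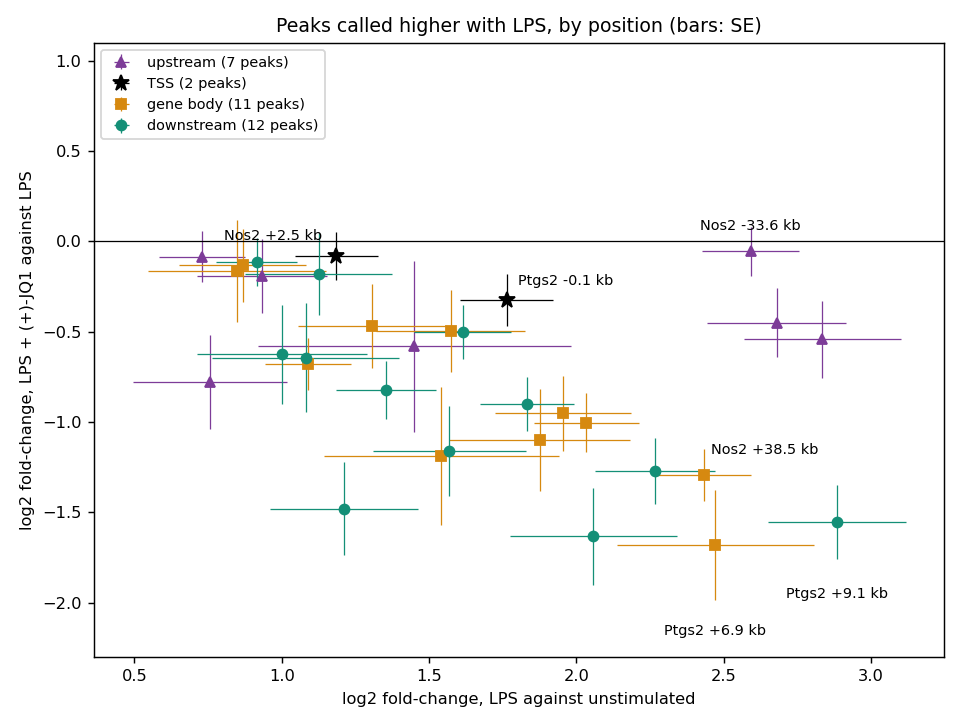
The 32 members called higher with LPS, with the log2 fold-change of LPS against unstimulated on the x axis and that of LPS + (+)-JQ1 against LPS on the y axis, both from edgeR with SE bars and 3 libraries per group. Symbols give the position of the peak relative to Nos2 or Ptgs2, and the axes share the LPS libraries. Peaks in the gene body or downstream reach -1.68 on the y axis, while the Nos2 -33.6 kb peak, with an LPS fold-change of 2.59, lies at -0.06.

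The balance between the 3′ end and the start was followed within each library as the log2 ratio of 1 end peak to the TSS peak, a measure added after the values were seen. For Nos2 (+38.5 kb over the TSS peak) the mean ratio was -1.64 at rest, -0.40 with LPS and -1.62 with LPS + (+)-JQ1 (SD 0.07, 0.08 and 0.35, n = 3 each). The difference between LPS + (+)-JQ1 and LPS was -1.22 (two-sided exact permutation p = 0.1, the smallest that 3 against 3 allows). For Ptgs2 (+9.1 kb over the TSS peak) the mean ratios were -1.95, -0.87 and -2.18 (SD 0.48, 0.08 and 0.56), and the difference between LPS + (+)-JQ1 and LPS was -1.31 (exact permutation p = 0.1). With LPS + IL-10 the mean ratio was -0.97 for Nos2 and -0.57 for Ptgs2 (SD 0.09 and 0.24). Their differences from LPS were -0.57 (exact permutation p = 0.1) and 0.31 (exact permutation p = 0.3).

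LPS still raised members of both windows in the presence of (+)-JQ1. With LPS + (+)-JQ1 against (+)-JQ1 alone, 22 of 55 members were higher and 0 lower, where 5.69% of all peaks were higher and 3.58% lower. The 22 included 20 of the 32 peaks raised by LPS alone. The TSS peaks rose in the presence of the inhibitor by 1.22 at Nos2 (SE 0.14, FDR = 2.91e-11) and 0.77 at Ptgs2 (SE 0.15, FDR = 8.98e-05). The -33.6 kb peak rose by 1.83 (SE 0.16, FDR = 6.12e-18), the +38.5 kb peak by 1.44 (SE 0.17, FDR = 6.9e-11) and Ptgs2 +9.1 kb by 1.51 (SE 0.26, FDR = 6.73e-06). Ptgs2 +6.9 kb and +11.6 kb did not pass the test, with log2 fold-changes of 0.92 (FDR = 0.125) and 0.63 (FDR = 0.212).

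In LPS-stimulated cells no member was called lower with IL-10 in the main fit, which used all libraries and TMM scaling. With LPS + IL-10 against LPS, 2 of 55 were higher and 0 lower, where 4.26% of all peaks were higher and 4.51% lower, so the shares were near or under those of all peaks. The share of all peaks at an FDR below 0.05 without the limit on the fold-change was not counted. By that FDR alone 5 of 55 members passed, all in the Nos2 window. Among them, +36.1 kb and +38.5 kb had log2 fold-changes of -0.48 (FDR = 0.0326) and -0.42 (FDR = 0.0364). Calls of lower peaks appeared in other fits. Nos2 +36.1 kb, Nos2 +38.5 kb and the Ptgs2 TSS peak were called lower without LPS + IL-10 library 1, +36.1 kb and +47.8 kb without LPS + IL-10 library 3, and +36.1 kb also without LPS library 1, without replicate 1 of every group and with loess offsets. Without replicate 3 of every group, +47.8 kb was called lower. At +38.5 kb the LPS + IL-10 libraries held 19.4, 13.8 and 19.0 CPM, all below the LPS libraries. At -33.6 kb they held 18.6, 18.1 and 16.6 CPM, also below the LPS libraries, with a log2 fold-change of -0.36 that did not pass the test (FDR = 0.083). At the Nos2 TSS they held 36.2, 29.1 and 36.6 CPM, which overlapped the LPS libraries, with a log2 fold-change of 0.15 (interval -0.12 to 0.41).

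At the Ptgs2 TSS the LPS + IL-10 libraries held 24.4, 17.4 and 16.8 CPM, a log2 fold-change of -0.36 (SE 0.15, FDR = 0.0991). Without the first of these libraries the value was -0.55 and passed the test (FDR = 0.0183). Past the end of Ptgs2 the values stayed near those of LPS, with 18.3, 9.68 and 12.4 CPM at +9.1 kb (log2 fold-change -0.02, interval -0.39 to 0.35) and 6.35, 3.30 and 5.33 CPM at +11.6 kb (0.01, interval -0.44 to 0.46). These intervals do not include the fold-changes of -1.55 and -1.48 measured with (+)-JQ1.

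The members raised by IL-10 on top of LPS were at the edges of the Nos2 window and were named after their values were seen. The -48.0 kb peak held 6.60, 5.10 and 7.26 CPM with LPS + IL-10, against 2.80, 3.45 and 2.81 CPM with LPS and 2.61, 1.09 and 1.74 CPM with LPS + (+)-JQ1. The LPS + IL-10 libraries were above all other libraries, with a log2 fold-change of 1.07 against LPS (SE 0.23, FDR = 0.000349) and 1.88 against IL-10 alone (SE 0.24, FDR = 5.89e-10). The +87.4 kb peak held 1.22, 0.811 and 1.38 CPM against 0.368, 0.3995 and 0.478 CPM with LPS, a log2 fold-change of 1.46 (SE 0.43, FDR = 0.0154). Upon leaving out single libraries or replicate numbers, 1 or 2 members were called higher. The call at +87.4 kb was lost without LPS library 1 or 2, LPS + IL-10 library 3 or any replicate number. It was also lost when every library had to hold 10 counts or more. The call at -48.0 kb was kept in all of these fits.

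LPS also raised most members in the presence of IL-10. With LPS + IL-10 against IL-10 alone, 39 of 55 members were higher and 0 lower, where 8.93% of all peaks were higher and 6.47% lower. The 39 included 29 of the 32 peaks raised by LPS alone. In the Ptgs2 window 12 of 18 were higher, among them -34.2 kb and -27.1 kb, which were not called with LPS alone (0.83, FDR = 0.169, and 0.06, FDR = 0.932). At -34.2 kb the values were 0.393, 0.292 and 0.141 CPM with IL-10 and 1.83, 2.14 and 1.01 CPM with LPS + IL-10, a log2 fold-change of 2.56 (SE 0.45, FDR = 4.72e-06). These 2 low peaks were named after their values were seen.

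**Figure D3:**
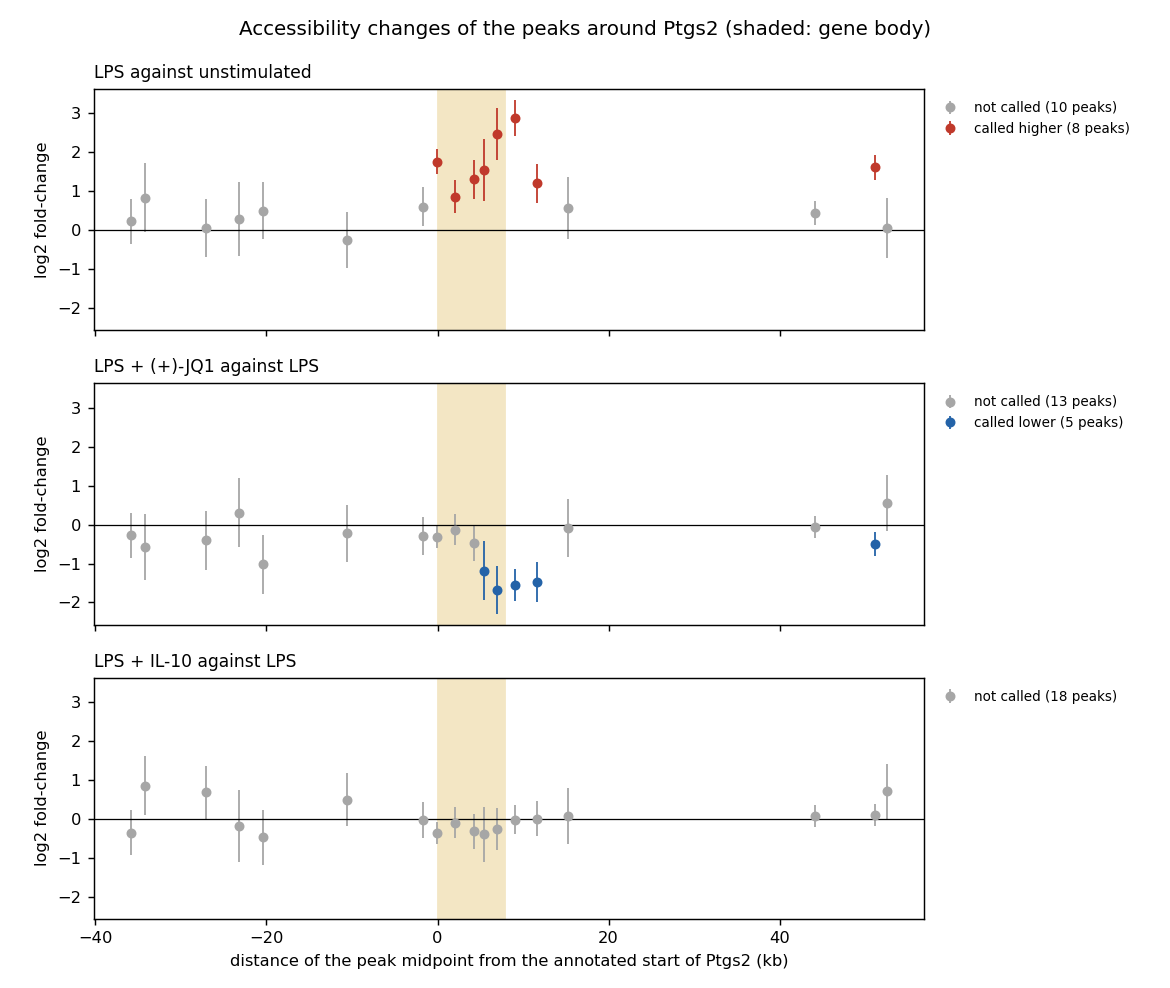
Log2 fold-change (y axis) of the 18 peaks of the Ptgs2 window against the distance of the peak midpoint from the annotated start in kb (x axis), for the same 3 comparisons, with 95% intervals from edgeR, 3 libraries per group and the gene body shaded. The 5 peaks lowered by (+)-JQ1 lie at +5.4, +6.9, +9.1, +11.6 and +51.1 kb, and no peak is called with LPS + IL-10 against LPS.

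Set against each other in stimulated cells, (+)-JQ1 left 17 of 55 members lower than IL-10 did and 0 higher, where 4.68% of all peaks were lower and 3.43% higher. This comparison does not use the LPS libraries. The 17 comprised 11 Nos2 peaks and 6 Ptgs2 peaks. Among them were Nos2 +38.5 kb (log2 fold-change -0.88, SE 0.15, FDR = 3.54e-06), Nos2 +21.6 kb (-1.03, SE 0.14, FDR = 1.82e-08) and Ptgs2 +9.1 kb (-1.53, SE 0.21, FDR = 8.08e-09). The difference was greatest at Nos2 -48.0 kb (-1.84, SE 0.24, FDR = 6.15e-09). Neither TSS peak was called, with -0.23 at Nos2 (SE 0.13, FDR = 0.322) and 0.04 at Ptgs2 (SE 0.15, FDR = 0.922).

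Without LPS, few members changed. With (+)-JQ1 against unstimulated cells, 3 of 55 were higher and 1 lower, where 7.85% of all peaks were higher and 3.15% lower. With IL-10 against unstimulated cells, 2 of 55 were higher and 1 lower, where 5.16% of all peaks were higher and 3.5% lower. These shares are near those of all peaks. The Ptgs2 TSS peak held 12.9, 12.9 and 9.67 CPM with (+)-JQ1 and rose by 0.67 (SE 0.17, FDR = 0.00162), although the groups overlapped. Nos2 -33.6 kb was higher with both, by 0.70 with (+)-JQ1 (SE 0.18, FDR = 0.00298) and 0.65 with IL-10 (SE 0.18, FDR = 0.00927). The Lgals9 TSS peak at +63.2 kb was higher by 0.53 and 0.57 (FDR = 0.00308 and 0.00302), and Ptgs2 +11.6 kb was lower, with log2 fold-changes of -0.90 and -0.87 (FDR = 0.0365 and 0.0381), though not between the libraries of replicate 3. With total counts or loess offsets in place of TMM, 0 members were called higher in either comparison.

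**Figure D4:**
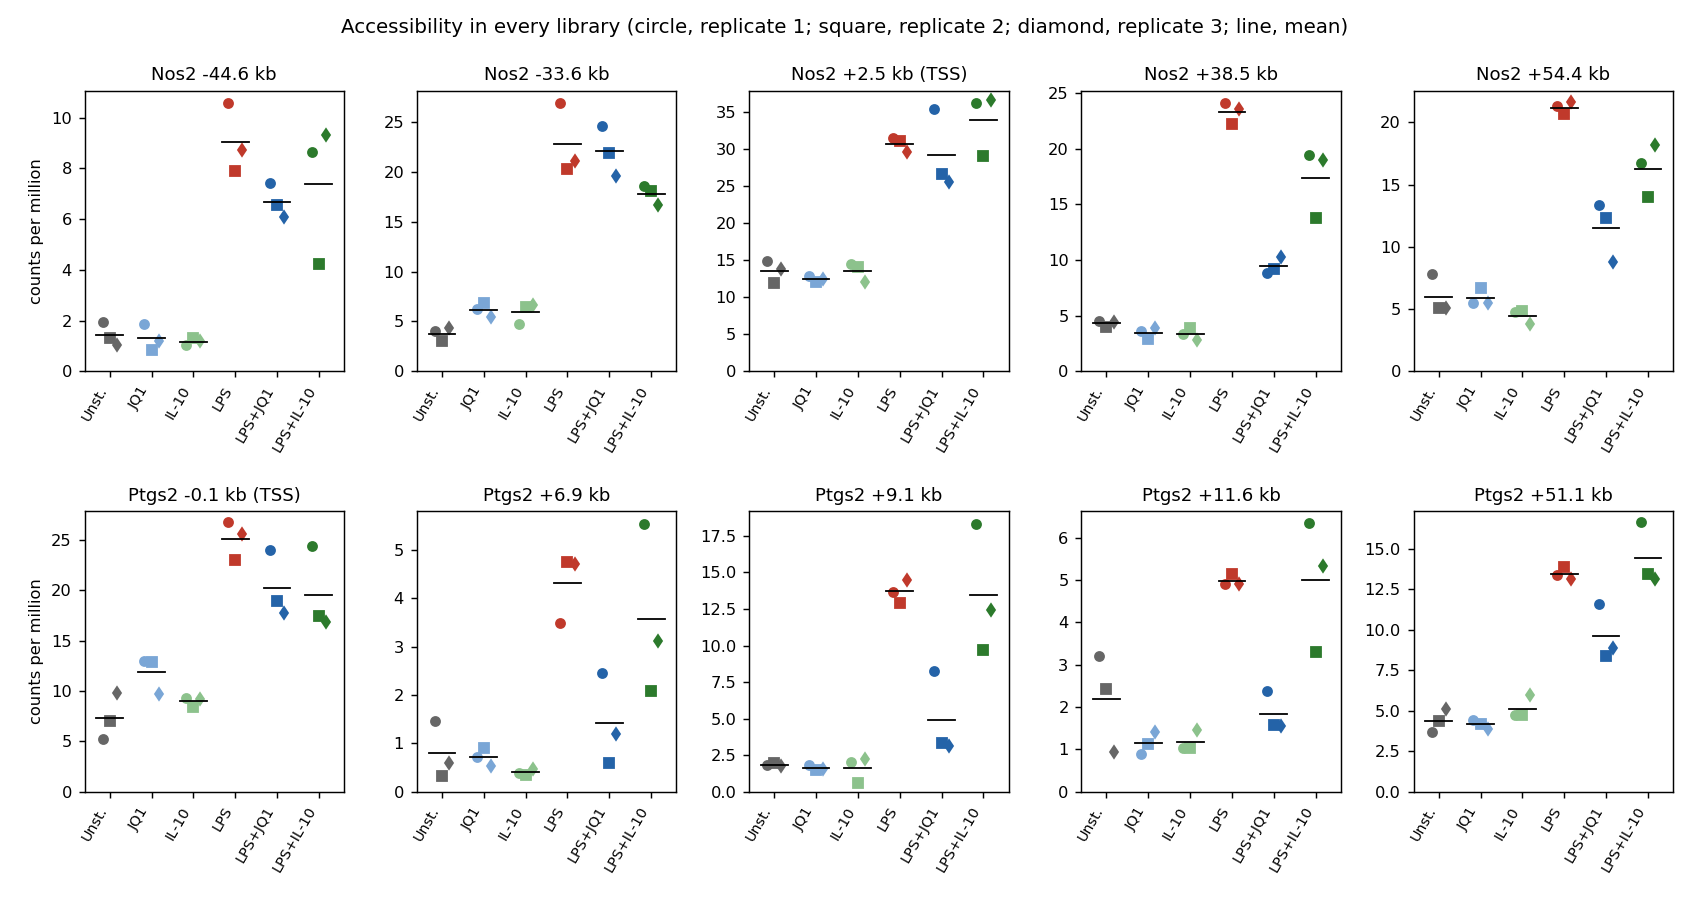
CPM (y axis, from 0) in each of the 18 libraries for 10 member peaks, by condition (x axis). Symbols give the replicate number and lines the mean of 3 libraries. The LPS + (+)-JQ1 libraries lie below the LPS libraries at Nos2 +38.5 kb and Ptgs2 +9.1 kb and overlap them at the Nos2 TSS.

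Whether the LPS response itself differed with each treatment was tested as an interaction in the same fit. With (+)-JQ1 the response was smaller in 8 of 55 members and larger in 0, where 3.19% of all peaks were lower and 0.649% higher. The interaction was -1.38 at Ptgs2 +9.1 kb (SE 0.37, FDR = 0.0188), -1.15 at Nos2 +36.1 kb (SE 0.26, FDR = 0.0057) and -0.99 at Nos2 +38.5 kb (SE 0.24, FDR = 0.00954). At the Nos2 TSS it was 0.03 (SE 0.20, FDR = 0.965). At the Ptgs2 TSS it was -0.996 (SE 0.22, FDR = 0.00494), where the inhibitor had also raised the resting level. With IL-10 the response was smaller in 2 and larger in 2 of 55 members, where 5.9% of all peaks were lower and 2.01% higher. These counts depended on the scaling and the libraries. With total counts or loess offsets, 2 members were called lower for (+)-JQ1, and those at Ptgs2 +9.1 kb and Nos2 +38.5 kb were lost. For IL-10, total counts gave 9 called members in place of 4 and loess offsets 3. The balance over all peaks turned round as well, to 4674 higher and 1838 lower for (+)-JQ1 and 12207 higher and 5152 lower for IL-10 with total counts, and to 1612 and 888 and to 4498 and 3437 with loess offsets. Without replicate 2 of every group, 0 members were called for either treatment.

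The levels of the TSS peaks were ordered by condition as follows. For Nos2 the group means were 12.5 CPM with (+)-JQ1, 13.5 CPM unstimulated, 13.6 CPM with IL-10, 29.2 CPM with LPS + (+)-JQ1, 30.7 CPM with LPS and 34.0 CPM with LPS + IL-10 (SD 0.418, 1.52, 1.28, 5.40, 1.00 and 4.22, n = 3 each). Neighbours within the first 3 and within the last 3 groups overlapped, and the LPS groups lay above the others. For Ptgs2 the means were 7.34 CPM unstimulated, 8.96 CPM with IL-10, 11.8 CPM with (+)-JQ1, 19.6 CPM with LPS + IL-10, 20.2 CPM with LPS + (+)-JQ1 and 25.1 CPM with LPS (SD 2.28, 0.521, 1.87, 4.23, 3.34 and 1.91). Here the LPS libraries overlapped those of both groups below them, the IL-10 libraries overlapped the unstimulated libraries, and the other neighbours in this order did not overlap except for LPS + IL-10 and LPS + (+)-JQ1.

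Across the 18 libraries, the TSS peaks of Nos2 and Ptgs2 had a Pearson correlation of 0.857 and a Spearman correlation of 0.744 on the log scale, as a description of libraries that share treatment. Of 14052 TSS peaks compared, those most like Nos2 by Pearson's r were Txlnb (0.974), Aanat (0.972), Plagl2 (0.971), Irg1 (0.97) and Astl (0.966). Those most like Ptgs2 were a peak shared by 5033414D02Rik and Cd274 (0.973), Rtp4 (0.972), Cdc42bpg (0.972), 9930022D16Rik (0.969) and AW011738 (0.968). By Spearman's rho the nearest to Nos2 was again Txlnb (0.957), while the nearest to Ptgs2 was Pgap2 (0.977). Plagl2 (0.94) for Nos2 and Cdc42bpg (0.961) for Ptgs2 also stayed among the nearest, and the other names changed with the measure.

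Summed over the members, the Nos2 window held 128 CPM at rest, 324 CPM with LPS, 236 CPM with LPS + (+)-JQ1 and 305 CPM with LPS + IL-10 (SD 8.62, 9.63, 16.1 and 33.3, n = 3 each) over 75875 bp of peaks. The gene body peaks made up 35.3, 100.3, 56.3 and 103.6 CPM of these sums. The Ptgs2 window held 42.1, 100.2, 71.6 and 94.8 CPM (SD 2.02, 2.27, 16.8 and 15.1) over 23243 bp.

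Genes that act with these enzymes were described from 2 lists, with peaks within 5 kb of the gene bodies. Around 18 genes of arginine and nitric oxide metabolism, 38 of 164 peaks were higher and 8 lower with LPS, with a median log2 fold-change of 0.21. The share higher was 23.2%, against 11.7% of all peaks. With LPS + (+)-JQ1 against LPS 27 were lower and 3 higher (median -0.14), and the share lower was 16.5%, against 3.49% of all peaks. With LPS + IL-10 against LPS 12 were lower and 8 higher (median -0.16), which is 7.32% and 4.88%, near the 4.51% and 4.26% of all peaks. The 27 lower peaks all lay at Gch1, which makes the tetrahydrobiopterin cofactor of nitric oxide synthase, and Slc7a2, an arginine transporter. A peak of Gch1 went from a mean of 5.64 CPM at rest to 25.6 CPM with LPS, 10.5 CPM with LPS + (+)-JQ1 and 15.1 CPM with LPS + IL-10 (SD 0.541, 1.27, 0.495 and 0.430, n = 3 each). It was called lower with both, by log2 fold-changes of -1.29 (FDR = 5.15e-12) and -0.76 (FDR = 1.3e-05). A peak of Arg1, whose product competes for arginine, was higher with LPS + IL-10 than with LPS, by 0.91 (SE 0.14, FDR = 2.34e-07).

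Around 23 prostanoid genes, 50 of 354 peaks were higher and 36 lower with LPS (median 0.04), close to the shares of all peaks. With LPS + (+)-JQ1 against LPS 16 were lower and 4 higher (median -0.05), which is 4.52% and 1.13%, near the 3.49% and 1.74% of all peaks. With LPS + IL-10 against LPS 25 were higher and 6 lower (median 0.16), which is 7.06% and 1.70%, against 4.26% and 4.51% of all peaks. A peak of Ptges, which makes prostaglandin E2 from the product of cyclooxygenase, held means of 2.61 CPM at rest, 14.5 CPM with LPS, 5.47 CPM with LPS + (+)-JQ1 and 13.9 CPM with LPS + IL-10 (SD 0.527, 1.67, 0.893 and 3.02, n = 3 each). Its log2 fold-change with (+)-JQ1 was -1.42 (SE 0.17, FDR = 9.97e-11). Another peak of Ptges went from 3.06 CPM at rest to 16.1 CPM with LPS and held 14.2 CPM with LPS + (+)-JQ1 (SD 0.368, 1.86 and 5.66, n = 3 each). A peak of Tbxas1, thromboxane synthase, was lower with (+)-JQ1, with a log2 fold-change of -1.26 (SE 0.13, FDR = 2.72e-12), and another of its peaks was higher with IL-10 by 1.37 (SE 0.18, FDR = 1.04e-08). A peak of Pla2g4a, the phospholipase that releases arachidonic acid, was higher with LPS + IL-10 than with LPS, by 1.27 (SE 0.18, FDR = 7.56e-08).

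Libraries were sequenced on lanes 5 and 6, and for replicate 2 the lane went with LPS. Of the 32 members raised by LPS, 31 were higher between the libraries of replicate 1 (both on lane 5) and 32 between those of replicate 3 (both on lane 6). The 15 members lowered by (+)-JQ1 were lower within each of the 3 replicate numbers, whose stimulated libraries shared a lane. These members were called from the same libraries, so the shared signs follow largely from the call and do not test the lane. In bulk libraries, fewer cells with an open site and less accessibility per cell cannot be told apart.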

How the data were processed

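ATAC-seq was measured in 18 libraries from 3 Il10-/- mice. As stated in the study's methods, the authors aligned reads uniquely to mm9 with bowtie2 inside the PEPATAC pipeline, called peaks per library with MACS2, merged them into a union set and classed peaks by ChIPSeeker. The deposited values are raw counts per peak, and the tool that counted them is not given in the sources used here. In the table of all peaks, 6 columns that matched no sample were not used. Peak coordinates were read as 1-based.

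Differences were tested on these counts by edgeR 4.0.16 under R 4.3.3 (filterByExpr, TMM, quasi-likelihood F test, all 18 libraries in 1 fit, Benjamini-Hochberg over 194230 peaks). Adjusted p-values are given as FDR, and the script was tested on simulated data. CPM values were scaled by TMM. SEs were derived from the fold-change and F, and intervals are 95%. Fully named peaks were those over a TSS of Nos2 or Ptgs2 and, in each window, up to 8 DARs of LPS against unstimulated or of either treatment within LPS, ordered by the FDR with LPS. Pattern likeness used log2(CPM + 0.5) of TSS peaks with a mean CPM of at least 1. Members, lists and tests were chosen with earlier results of these data known. Alternatives were DESeq2 1.42.0, other scalings (loess offsets through limma 3.58.1), filters, windows and thresholds, a lane term, the replicate number as a block, and left-out libraries and replicate numbers. The main design had no block, because the study names none. The p-values of the main edgeR fit rest on the spread between the 3 libraries within a group, pooled over all groups. They do not rest on the spread of the compared groups alone, so a group with a wider spread is not weighed by its own spread. Counting error is small at the depth of 12020526 to 25908198 counts for strong peaks and limits members whose lowest library held under 10 counts. One sequence is not reported here.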

Additional observations from a re-analysis of the deposited data

Results flagged for a closer look

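The LPS response differed with a treatment, by the interaction test in edgeR across all 18 libraries, in 12 tests. Nos2 -33.6 kb and Nos2 +63.2 kb are among them for both treatments. With (+)-JQ1 the log2 response was smaller at Ptgs2 +9.1 kb (-1.38), Nos2 +36.1 kb (-1.15), the Ptgs2 TSS peak (-1.0), Nos2 +38.5 kb (-0.99), Nos2 +54.4 kb (-0.89), Nos2 +47.8 kb (-0.88), Nos2 -33.6 kb (-0.76) and Nos2 +63.2 kb (-0.65). At Nos2 -33.6 kb and +63.2 kb and at the Ptgs2 TSS, (+)-JQ1 alone had raised the resting level, and the levels with LPS were not called different. With IL-10 the response was smaller at Nos2 -33.6 kb (-1.01) and Nos2 +63.2 kb (-0.83) and larger at Ptgs2 -27.1 kb (1.60) and Nos2 -48.0 kb (1.12). At Nos2 -33.6 kb and +63.2 kb, IL-10 alone had also raised the resting level, and the levels with LPS + IL-10 and LPS were not called different. The FDR of these tests ran from 0.00136 to 0.0446. At Ptgs2 -27.1 kb the IL-10 libraries held 0.344, 1.22 and 0.329 CPM and the LPS + IL-10 libraries 1.47, 2.38 and 2.16 CPM.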

How the results depend on the processing

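Of 553 alternative values for the 31 effects on single peaks, 531 kept direction and side of the thresholds, 20 no longer passed, 1 newly passed and 1 turned sign: at the Nos2 TSS the (+)-JQ1 effect within LPS was 0.01 without the third LPS + (+)-JQ1 library, in a range down to -0.237 without the first. Leaving out single libraries or replicate numbers gave 26 to 32 members higher with LPS, 11 to 18 lower with (+)-JQ1 and 1 to 2 higher with IL-10 within LPS, 17 to 25 and 29 to 38 higher with LPS within (+)-JQ1 and within IL-10, 12 to 15 lower with (+)-JQ1 than with IL-10, 0 to 3 higher with (+)-JQ1 alone and 0 to 4 with IL-10 alone, and 0 to 9 and 0 to 4 lower in the interactions with (+)-JQ1 and IL-10. The (+)-JQ1 interaction count of 8 became 4 without unstimulated library 2, 3 without LPS library 1, 5 without (+)-JQ1 library 1 or 2, 5 and 4 without LPS + (+)-JQ1 library 2 or 3, and 5, 0 and 4 without replicate 1, 2 or 3 of every group. The count of 2 higher with IL-10 alone became 4 without unstimulated library 3 and 1 without unstimulated library 2 or IL-10 library 2 or 3. The count of 3 higher with (+)-JQ1 alone became 1 without unstimulated library 1 or replicate 1 of every group. The count of 2 higher with IL-10 within LPS became 1 without LPS library 1 or 2, LPS + IL-10 library 3 or any replicate number, and the 2 lower in the IL-10 interaction became 4 without unstimulated library 3. Without replicate 2 of every group, 0 members were called higher with (+)-JQ1 alone, higher with IL-10 alone or lower in either interaction. Total counts moved the median of all peaks to -0.26, -0.37 and -0.26 with LPS, (+)-JQ1 and IL-10 against unstimulated cells. Total counts and loess offsets gave 0 and 0 members higher with (+)-JQ1 alone, 0 and 0 with IL-10 alone, and 2 and 2 lower in the (+)-JQ1 interaction, and loess offsets 1 lower in the IL-10 interaction. At least 10 counts in every library left 1 higher with IL-10 within LPS, 1 higher with IL-10 alone and 25 higher with LPS within IL-10. An FDR below 0.01 left 1 higher with IL-10 within LPS and 3 lower in the (+)-JQ1 interaction. The 25 kb window left 0 higher with IL-10 within LPS, 1 higher with IL-10 alone and 1 lower in the IL-10 interaction. The causes were not tested, beyond fewer peaks or libraries where these were removed. With the replicate number as a block, 32 members were higher with LPS, 16 lower with (+)-JQ1 (Nos2 -48.0 kb added) and 8 lower in the (+)-JQ1 interaction, and no count moved by over 1.5 times. Deviations from the group means correlated by 0.0057 on average between libraries of the same number (45 pairs, highest 0.064) and by -0.0029 between different numbers (90 pairs), and 9 of 18 libraries correlated best with one of their own number, so the numbers are not known to pair the libraries.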
